A study of Mus musculus with 23 samples.

Results

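The genes of class I antigen presentation and the immunoproteasome were followed through 8 groups of mouse splenic CD4+ T cells. They were chosen by name from the table of read counts: H2-K1, H2-D1, B2m, Tap1, Tap2, Tapbp, Psmb8, Psmb9, Psmb10 and Nlrc5. These are 10 of the 53379 gene IDs of the table, and all 10 were among the 16882 genes that had enough counts to be tested. T cells of C57BL/6 background were sorted from spleen as CD45+CD3+CD4+CD8- cells and kept in vitro for 72 h, always with IL-2 at 30 IU/ml. They received nothing further (called unstimulated) or antibodies against CD3 and CD28 (called stimulated), and each kind was cultured with 5 mM niacin or with none. Donor mice were labelled wild type or Gpr109a-/-, Gpr109a being the earlier name of Hcar2, the gene of the niacin receptor. There were 23 libraries, 3 in each of the 8 groups except 1, the niacin-treated unstimulated group with the knockout label, where 2 were analysed. The labels do not say whether libraries came from separate mice, so p-values measure only the spread between these libraries.

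Class I molecules carry peptides from the inside of a cell to its surface, where CD8 T cells and NK cells read them. A heavy chain, in these mice from H2-K1 or H2-D1, pairs with the light chain beta-2-microglobulin, from B2m. Peptides are cut by the proteasome, in which the interferon-inducible catalytic subunits of Psmb8, Psmb9 and Psmb10 can replace those of Psmb5, Psmb6 and Psmb7, then pumped into the endoplasmic reticulum by Tap1 and Tap2 and loaded with the help of tapasin, from Tapbp. Nlrc5 encodes the transactivator of class I genes, and interferon signalling, in part through Irf1, also raises them. Resting and activated T cells carry class I on their own surface.

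Most of these genes lie close together in the major histocompatibility complex on chromosome 17. In the coordinates of the deposited table (GRCm38), Tapbp spans 33915899 to 33929288, H2-K1 33996017 to 34000333, Psmb9 34181988 to 34187764, Tap1 34187553 to 34197225, Psmb8 34197721 to 34201454, Tap2 34203527 to 34216321 and H2-D1 35262730 to 35267499. B2m lies on chromosome 2 at 122147686 to 122153083. Nlrc5 (94434356 to 94527272) and Psmb10 (105935735 to 105938444) lie on chromosome 8. Sequences of 250 bases before the start that RefSeq (GRCm38.p6) gives were found for 8 of the 10 members. RefSeq starts differ from the deposited spans: the stretches of H2-D1, Tapbp, Psmb8 and Psmb9 lie inside the spans above and that of Psmb10 overlaps its gene's 5′ end. The promoters of B2m and H2-K1 are shown whole because they lie outside the deposited spans, and because the 2 chains they encode form 1 molecule. With stimulation H2-K1 passed the test in some comparisons below and B2m in none, but the 2 genes were not tested against each other. Capitals mark 3 motifs searched on both strands: the core of the interferon-stimulated response element (GAAANNGAA), the Y box (CCAAT, or ATTGG on the other strand) and an NF-kB type site (GGGNNTTCC). The B2m stretch is chr2:122147437-122147685 on the plus strand, and the H2-K1 stretch is chr17:34000348-34000597 on the minus strand.
B2m: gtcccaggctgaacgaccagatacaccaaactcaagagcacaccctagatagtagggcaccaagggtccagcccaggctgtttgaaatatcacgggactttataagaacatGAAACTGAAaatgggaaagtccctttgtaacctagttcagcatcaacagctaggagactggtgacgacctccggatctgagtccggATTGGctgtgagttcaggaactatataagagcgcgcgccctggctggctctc
H2-K1: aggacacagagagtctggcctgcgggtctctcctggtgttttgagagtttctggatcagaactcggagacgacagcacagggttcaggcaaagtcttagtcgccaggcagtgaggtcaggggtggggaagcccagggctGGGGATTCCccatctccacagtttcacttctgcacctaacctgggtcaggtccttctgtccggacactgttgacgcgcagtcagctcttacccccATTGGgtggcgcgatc

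By these exact patterns, the B2m promoter held 1 response element core and 1 Y box, and the H2-K1 stretch held 1 NF-kB type match and 1 Y box. RefSeq gives another H2-K1 start, not shown, whose stretch (chr17:34000334-34000583) held 1 NF-kB type match and 2 Y boxes. The heavy chain genes H2-K1 and H2-D1, whose levels followed each other, carried the same NF-kB type match inside a run of 47 identical bases. The short stretches around it are shown for that reason, with that of the Y box between the RefSeq starts of the divergent genes Psmb9 and Tap1, a stretch inside the deposited Psmb9 span. The H2-K1 stretch is chr17:34000439-34000468 on the minus strand, the H2-D1 stretch chr17:35262913-35262942 on the plus strand and the shared Psmb9 and Tap1 stretch chr17:34187331-34187360 on the plus strand.
H2-K1 match: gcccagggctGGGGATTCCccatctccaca
H2-D1 match: gcccagggctGGGGATTCCccatctcctca
Psmb9 and Tap1 match: tttCCAATcagcggctgcgcgcggtgcagg

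Among 32851 promoters of the same length, 7.129% held the response element core, 33.85% the Y box and 4.977% the NF-kB type match. No match of the 3 motifs was found in the 250 bases before the RefSeq starts of Psmb8 and Psmb10, and the Tapbp stretch held 2 Y boxes. These matches describe letters only. Each pattern has fixed letters and spacing, so a site of another form was not counted in any of these stretches. Where no match is given, a site is therefore not excluded.

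Libraries held 13205565 to 30090018 counts, with a median of 24007159. In the unstimulated knockout-labelled group, library 3 had the lowest total of all (the next was 20604050), the lowest TMM scaling factor, 0.885, and a mitochondrial share of 0.407% beside 0.795% and 0.643%. Its column name in the deposited counts alone lacks the tag jax, whose meaning is not stated. The library stood apart in several members and is called the outlying library 3 below. That share, the percent of counts on mitochondrial genes, was 0.187% and 0.216% in libraries 1 and 2 and 0.605% in library 3 of the niacin-treated stimulated group with the wild-type label. Among unstimulated libraries with the wild-type label and no niacin, library 1 had 0.346% beside 0.937% and 0.802%. Hcar2 counts went against the labels: 10 of 11 knockout-labelled libraries held between 4 and 32 counts, and 11 of 12 wild-type-labelled libraries held 0. Every genotype below is therefore that of the label. Markers of CD4 T cells summed to 2024 to 3715 CPM (the usual depth-scaled count unit, each library brought to the same total), all 5 of them above 0 in every library. CD8 T cell markers summed to 7.88 to 29.2 CPM, B cell markers to 1.06 to 8.62 CPM and myeloid and dendritic cell markers to 0.507 to 12.9 CPM, with Pax5 at 0 in 21 libraries and Csf1r in 19. NK cell markers summed to 72.5 to 109 CPM stimulated and 10.9 to 40.6 CPM unstimulated, of which Eomes alone ran from 3.54 to 108 CPM, and Ncr1 was at 0 in 11 libraries. The outlying library 3 had the lowest CD4 T cell sum, 2024 CPM beside 3022 and 3036.5 CPM in its group. It also had the lowest CD8 T cell sum, 7.88 CPM beside 22.1 and 22.8 CPM. The part of these markers in the stimulation results was not tested. In RNA from whole cultures, fewer cells of a type and less RNA per cell cannot be told apart.

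Levels per kb of exon compare genes only roughly, because the deposited exon length of a gene can exceed that of 1 transcript. It is 3659 bases for Psmb9 and 5476 for Tap1, whose longest coding transcripts have 1352 and 2953, but 860 for B2m, as in its transcript. The order of genes therefore depends on the length used. Per kb of deposited exon length, B2m had the highest level, with group means of 2967 to 4569 CPM per kb. H2-D1 followed at 1725 to 3009.6 and H2-K1 at 1055 to 2493 CPM per kb. Psmb8 lay at 224 to 559, Tapbp at 219 to 466 and Psmb10 at 149 to 243 CPM per kb. By this length Tap2 (111 to 185), Tap1 (115 to 184) and Psmb9 (93.3 to 182) were close to each other. Nlrc5, the transactivator gene, was the lowest at 20.5 to 52.7 CPM per kb. By this length the heavy chains, the light chain and their transactivator spanned the whole range. Values below are CPM scaled with TMM factors, not divided by length, so they compare groups of 1 gene only.

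**Figure D1:**
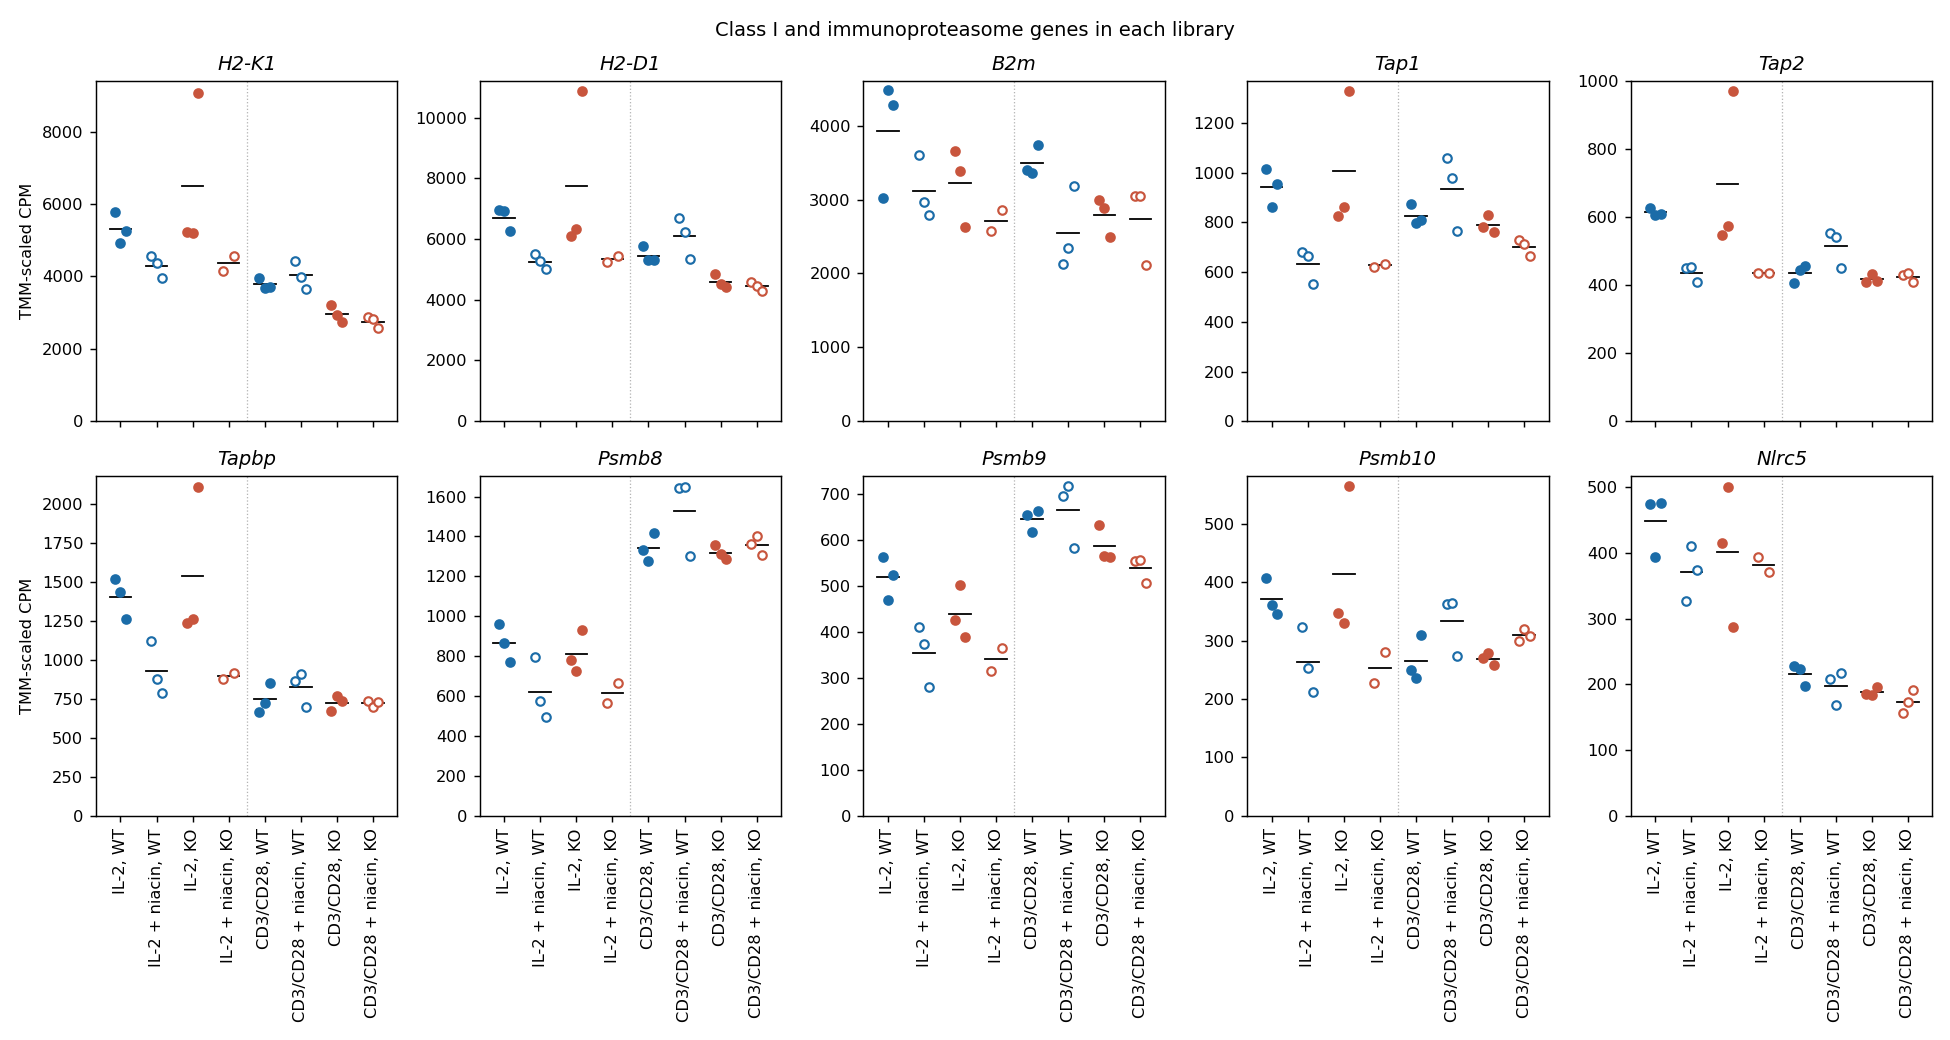
TMM-scaled CPM (vertical axes, from 0) of each of the 10 genes in the 23 libraries, by group along the horizontal axis; points are libraries, filled without niacin and open with niacin, blue for the wild-type and red for the knockout label, and the line is the group mean. Psmb8 is higher in all 12 stimulated than in all 11 unstimulated libraries and Nlrc5 lower, while library 3 of the unstimulated cells with the knockout label lies far above the other 2 for H2-K1, H2-D1, Tap1, Tap2, Tapbp and Psmb10.

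What antibodies to CD3 and CD28 added to IL-2 was compared within each genotype label, in the absence and in the presence of niacin. Nlrc5 fell in all 4 comparisons and Psmb8 rose in all 4. Without niacin H2-K1, Tap2, Tapbp and Psmb10 also fell in both labels. In niacin H2-K1 fell with the knockout label, and Tap2, Tapbp and Psmb10 passed in neither label, which does not show a difference by niacin: that difference passed for 0 members by edgeR, as given below. B2m passed in none of the 4.

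Nlrc5 was at 474, 394 and 476 CPM in the unstimulated wild-type-labelled libraries and at 228, 224 and 198 CPM in the stimulated ones. In knockout-labelled cells it was at 415, 500.5 and 287 CPM before and 185, 184 and 196 CPM after stimulation. Over all conditions the 11 unstimulated libraries lay between 287 and 500.5 CPM and the 12 stimulated ones between 157 and 228 CPM, with no overlap. The log2 fold changes ± SE were -1.05 ± 0.16 and -1.09 ± 0.16 without niacin (wild-type and knockout label; edgeR adjusted p = 2.6e-05 and 1.31e-05) and -0.91 ± 0.16 and -1.14 ± 0.18 with niacin (edgeR adjusted p = 9.79e-05 and 2.93e-05). Within the stimulated or within the unstimulated cells, no neighbouring groups in the order of Nlrc5 means were apart.

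Psmb8, the immunoproteasome subunit with chymotrypsin-like activity, moved the other way. It was at 961, 864 and 769.6 CPM in unstimulated and 1333, 1275 and 1416 CPM in stimulated wild-type-labelled cells, and at 779, 726 and 932 against 1355, 1312 and 1285 CPM in knockout-labelled cells. All 12 stimulated libraries (1275 to 1648 CPM) lay above all 11 unstimulated ones (497 to 961 CPM). Its log2 fold changes were 0.63 ± 0.15 and 0.70 ± 0.15 without niacin (edgeR adjusted p = 0.00174 and 0.000603) and 1.30 ± 0.15 and 1.14 ± 0.17 with niacin (edgeR adjusted p = 6.88e-07 and 2.15e-05).

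Psmb9, which encodes the subunit of caspase-like position, rose in 3 of the 4 comparisons. Unstimulated and stimulated wild-type-labelled cells held 563, 471 and 524 against 655, 618 and 663 CPM, groups that did not overlap (0.31 ± 0.14, edgeR adjusted p = 0.0692). In niacin the change was 0.91 ± 0.14 with the wild-type label and 0.66 ± 0.16 with the knockout label (edgeR adjusted p = 1.71e-05 and 0.00165). Knockout-labelled cells without niacin held 427, 503 and 389 against 633, 565 and 564 CPM (0.42 ± 0.14, edgeR adjusted p = 0.0154). This last call was lost on leaving out library 1 of the stimulated cells (edgeR adjusted p = 0.0624) or with no filter on low counts (edgeR adjusted p = 0.0832).

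Psmb10, the gene of the subunit that takes the trypsin-like position, fell without niacin. It was at 407, 361 and 346 against 249.8, 237 and 311 CPM with the wild-type label, and at 348, 330.0 and 566 against 270.1, 279 and 259 CPM with the knockout label, and neither pair of groups overlapped. The log2 fold changes were -0.48 ± 0.19 and -0.62 ± 0.19 (edgeR adjusted p = 0.0404 and 0.00879). In niacin they were 0.34 ± 0.19 and 0.29 ± 0.21 (edgeR adjusted p = 0.131 and 0.263). The change in niacin with the wild-type label passed without library 1 of its unstimulated cells (0.51, edgeR adjusted p = 0.0377). Without niacin the wild-type call was lost on leaving out library 1, 2 or 3 of the unstimulated or library 1 or 2 of the stimulated cells, with changes of -0.53 to -0.40 (edgeR adjusted p = 0.0539 to 0.131). The knockout call was lost without the outlying library 3 (-0.33, edgeR adjusted p = 0.0809).

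Of the heavy chain genes, H2-K1 fell in 3 of the 4 comparisons and H2-D1 in 1. H2-K1 was at 5771, 4928 and 5261 CPM unstimulated and 3960.0, 3674 and 3708 CPM stimulated with the wild-type label. With the knockout label it was at 5226, 5207 and 9069 CPM unstimulated and 3197, 2947 and 2740.2 CPM stimulated. In both labels every stimulated library lay below every unstimulated one. H2-K1 fell by 0.49 ± 0.16 and 1.13 ± 0.16 on the log2 scale (edgeR adjusted p = 0.0146 and 6.42e-06), and by 0.66 ± 0.17 in niacin with the knockout label (edgeR adjusted p = 0.0035). In niacin with the wild-type label, where libraries held 4565, 4377 and 3945 against 4435, 3992 and 3650.1 CPM and overlapped, the change was -0.09 ± 0.16 (edgeR adjusted p = 0.629). The call with the wild-type label and no niacin was lost without library 1 of the unstimulated cells (edgeR adjusted p = 0.0529), the library with the mitochondrial share of 0.346%.

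H2-D1 was at 6949.7, 6915 and 6258 against 5761, 5295 and 5297 CPM with the wild-type label (-0.30 ± 0.15, edgeR adjusted p = 0.117). Knockout-labelled cells held 6085, 6326 and 10874 against 4849, 4518 and 4432 CPM, and H2-D1 fell by 0.75 ± 0.15 (edgeR adjusted p = 0.000376). Neither pair overlapped. In niacin the changes were 0.21 ± 0.15 and -0.27 ± 0.17 (edgeR adjusted p = 0.246 and 0.202). Without the outlying library 3 the fall with the knockout label was -0.43 for H2-D1 (edgeR adjusted p = 0.000415) and -0.82 for H2-K1 (edgeR adjusted p = 1.16e-06).

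B2m, the light chain gene that both heavy chains need, passed the test in none of the 4 comparisons. Its libraries were at 3022, 4486 and 4282 CPM unstimulated and 3401, 3359.6 and 3741 CPM stimulated with the wild-type label. Knockout-labelled libraries were at 3653, 3386 and 2634 against 2999, 2891 and 2488 CPM, and the groups overlapped in both labels. The 4 changes were -0.17 ± 0.18, -0.21 ± 0.18, -0.29 ± 0.18 in niacin with the wild-type label and 0.01 ± 0.20 in niacin with the knockout label (edgeR adjusted p = 0.461, 0.334, 0.178 and 0.975). The change in niacin with the wild-type label passed without library 3 of the stimulated cells (-0.48, edgeR adjusted p = 0.0385) and was 0.0069 without libraries 1 and 2 (edgeR adjusted p = 0.995). In 6 of the 8 groups the library with the lowest mitochondrial share also had the lowest B2m level, as in the unstimulated wild-type-labelled cells, where library 1 held the 3022 CPM that made the groups overlap. The part of RNA quality in this was not tested.

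**Figure D2:**
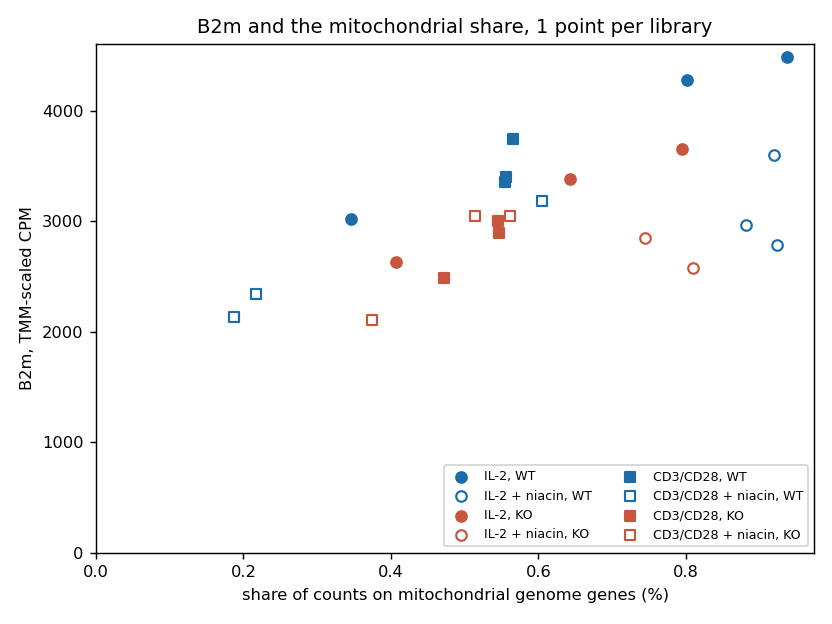
B2m level (TMM-scaled CPM, vertical axis from 0) against the share of counts on genes of the mitochondrial genome (percent, horizontal axis) in the 23 libraries; each point is a library, circles unstimulated, squares stimulated, open with niacin, red for the knockout label. Libraries 1 and 2 of the niacin-treated stimulated group with the wild-type label lie at the far left, with shares of 0.187% and 0.216% and B2m at 2133 and 2342 CPM.

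The transporter and loading genes changed as follows. Tapbp was at 1517, 1436 and 1260.4 against 663, 726 and 851 CPM with the wild-type label and at 1234, 1263 and 2108 against 674, 769 and 734 CPM with the knockout label. No stimulated library reached the lowest unstimulated one. Tapbp fell by 0.91 ± 0.18 and 1.08 ± 0.18 (edgeR adjusted p = 0.000289 and 3.91e-05). In niacin its unstimulated libraries were at 1117, 874 and 788 CPM (wild-type label) and 874 and 914 CPM (knockout label). The changes with stimulation there were -0.17 ± 0.17 and -0.31 ± 0.19 (edgeR adjusted p = 0.422 and 0.189).

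Tap2 was at 628, 607 and 609.9 against 406, 444 and 456 CPM with the wild-type label and at 548, 576 and 972 against 410.4, 434 and 412 CPM with the knockout label. Again the groups did not overlap. It fell by 0.50 ± 0.16 and 0.74 ± 0.16 (edgeR adjusted p = 0.013 and 0.000542), and in niacin the changes were 0.24 ± 0.16 and -0.04 ± 0.17 (edgeR adjusted p = 0.206 and 0.881). The first call was lost without library 1 of the stimulated cells (edgeR adjusted p = 0.0517), and the second was -0.42 without the outlying library 3 (edgeR adjusted p = 0.000829).

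Tap1, which encodes the partner of Tap2 in the transporter, passed in neither label without niacin. It was at 1016, 861 and 954 against 874, 797 and 809 CPM (-0.19 ± 0.15, edgeR adjusted p = 0.321) and at 827, 863 and 1329.9 against 782, 829.9 and 761 CPM (-0.35 ± 0.15, edgeR adjusted p = 0.0629). The second passed with DESeq2 (-0.44, adjusted p = 0.0203) and was -0.10 without the outlying library 3 (edgeR adjusted p = 0.512). In niacin with the wild-type label Tap1 rose by 0.56 ± 0.15 (edgeR adjusted p = 0.00466), from 682, 667 and 551 to 1059, 979 and 766 CPM. That rise was 0.25 (edgeR adjusted p = 0.381) when libraries 1 and 2 of the stimulated cells were left out, whose mitochondrial shares are given above, a setting chosen after seeing the data. In niacin with the knockout label the change was 0.16 ± 0.17 (edgeR adjusted p = 0.452).

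**Figure D3:**
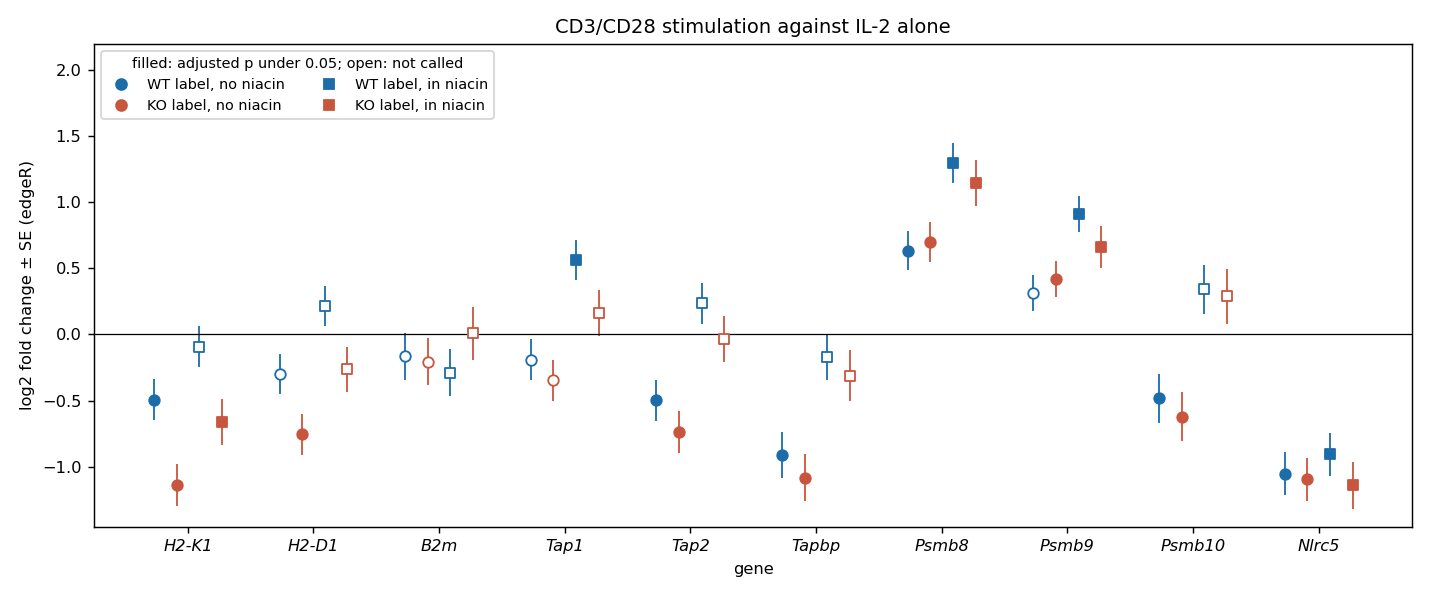
Log2 fold change of stimulated against unstimulated cells (vertical axis, edgeR, bars are SE) for each gene (horizontal axis), with circles without niacin, squares with niacin, blue for the wild-type and red for the knockout label; filled symbols have an adjusted p under 0.05. Psmb8 is above and Nlrc5 below the zero line in all 4 comparisons, and for H2-K1, H2-D1, Tap1, Tap2, Tapbp, Psmb9 and Psmb10 the squares lie above the circles of the same colour.

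Counted over the set without niacin, 1 member rose and 5 fell with the wild-type label, and 2 rose and 6 fell with the knockout label. Among all genes tested, 23.4% rose and 21.7% fell with the wild-type label, and 25.2% rose and 27.5% fell with the knockout label. The median log2 fold changes of the members were -0.39 and -0.68, beside -0.07 and -0.13 over all genes. In niacin, 3 rose and 1 fell with the wild-type label (all genes: 26% and 26.6%), and 2 rose and 2 fell with the knockout label (24.5% and 25.3%), with member medians of 0.23 and -0.01 beside -0.10 and -0.07. The comparisons with and without niacin use different libraries, and the test of their difference is given with niacin below.

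Of 38 other genes of the pathway, 6 rose and 15 fell with the wild-type label, 9 rose and 18 fell with the knockout label, 8 and 11 in niacin with the wild-type label, and 10 and 15 in niacin with the knockout label. Irf1, an interferon-induced activator of class I genes, fell from 1093, 1060.5 and 1104 CPM to 298 to 304 CPM with the wild-type label, by 1.85 ± 0.12 on the log2 scale (edgeR adjusted p = 2.6e-10), and by 1.88 ± 0.12 with the knockout label (edgeR adjusted p = 2.1e-10). Cd1d1, a lipid-presenting relative of class I, fell by 2.45 ± 0.33 and 2.60 ± 0.34 (edgeR adjusted p = 5.8e-06 and 2.6e-06). H2-Q4, another nonclassical class I gene, fell by 1.93 ± 0.31 with the knockout label (edgeR adjusted p = 3.4e-05). The interferon gene Ifng fell with the wild-type label, from 50.9, 4.96 and 25.6 CPM to at most 1.40 CPM (-4.76 ± 1.02, edgeR adjusted p = 0.00075). Of 10 nonclassical class I genes, 4 and 7 fell and 0 rose, where 21.7% and 27.5% of all genes fell. In contrast, the 3 constitutive subunits Psmb5, Psmb6 and Psmb7 rose in all 4 comparisons, for Psmb7 by 0.98 ± 0.23 and 1.57 ± 0.23 without niacin (edgeR adjusted p = 0.0015 and 1.2e-05). Nfkb1, a subunit of NF-kB, rose by 1.08 ± 0.14 and 1.24 ± 0.14 (edgeR adjusted p = 3.4e-06 and 5.6e-07), and Pomp, a chaperone of proteasome assembly, rose by 1.19 ± 0.20 with the knockout label (edgeR adjusted p = 4.6e-05).

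In niacin, Irf1 fell by 1.07 ± 0.12 with the wild-type label (edgeR adjusted p = 3.7e-07), and Jak1, a kinase of interferon receptors, fell by 1.62 ± 0.16 with the knockout label (edgeR adjusted p = 1.5e-07). Nfkb1 rose by 1.39 ± 0.14 and 1.59 ± 0.16 (edgeR adjusted p = 1.2e-07 and 2.3e-07). With libraries 1 and 2 of the wild-type-labelled stimulated group left out, 1 library of that group remained. Fewer pathway genes were then called in that comparison, as were fewer of all genes.

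Each immunoproteasome subunit was also set against the constitutive subunit whose place it takes, as a log2 ratio of counts per kb of exon within a library. For Psmb8 against Psmb5 the ratio was 1.93 ± 0.12 in unstimulated and 1.96 ± 0.08 in stimulated wild-type-labelled cells without niacin (SD, n = 3 each), while both genes rose. Averaged over the 4 backgrounds, stimulation changed it by 0.03 (two-sided exact permutation of the label within backgrounds, p adjusted over 9 such tests = 0.671). That average joined differences of opposite sign, which were not tested by themselves. They were 0.02 and -0.16 without niacin (wild-type and knockout label) and 0.28 and -0.01 with niacin. For Psmb9 against Psmb6 the ratio was 0.53 ± 0.20 unstimulated and 0.16 ± 0.07 stimulated with the wild-type label, and 0.56 ± 0.13 and -0.13 ± 0.12 with the knockout label (SD, n = 3 each). Stimulation lowered it by an average of -0.40 (exact permutation, adjusted p = 0.000309). For Psmb10 against Psmb7 it was 3.54, 3.62 and 3.53 against 2.10, 1.96 and 2.21 with the wild-type label, and 3.39, 3.59 and 5.55 against 1.91, 1.92 and 1.86 with the knockout label, without overlap. Its average change with stimulation was -1.35 (exact permutation, adjusted p = 0.000112; the raw p of 1.25e-05 is the smallest these permutations can give), and it ran from -1.45 to -1.18 when each library was left out in turn.

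Niacin and the genotype label went with lower ratios for the first 2 pairs. With niacin the ratio of Psmb8 to Psmb5 was lower by an average of -0.23 and that of Psmb9 to Psmb6 by -0.26 (exact permutation, adjusted p = 0.000262 for each). With the knockout label these ratios were lower by averages of -0.15 and -0.19 (exact permutation, adjusted p = 0.00821 and 0.0198). Those label differences came mostly from stimulated cells: without niacin the ratio of Psmb8 to Psmb5 was 1.96 ± 0.08 with the wild-type and 1.67 ± 0.06 with the knockout label stimulated, against 1.93 ± 0.12 and 1.83 ± 0.06 unstimulated (SD, n = 3 each), a contrast that was not tested by itself. For Psmb10 to Psmb7 the averages were -0.20 with niacin and -0.01 with the knockout label (exact permutation, adjusted p = 0.671 and 0.984), and both averaged over differences of opposite sign. With niacin the differences were -0.42 and -1.03 in unstimulated cells (wild-type and knockout label) and 0.48 and 0.20 in stimulated cells. With the knockout label they were 0.61 and 0.01 in unstimulated cells (without and with niacin) and -0.20 and -0.48 in stimulated cells. With the outlying library 3 left out, where Psmb7 was at 24.2 CPM beside 66.6 and 55.0 CPM, the label average was -0.18 (exact permutation, adjusted p = 0.0107).

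**Figure D4:**
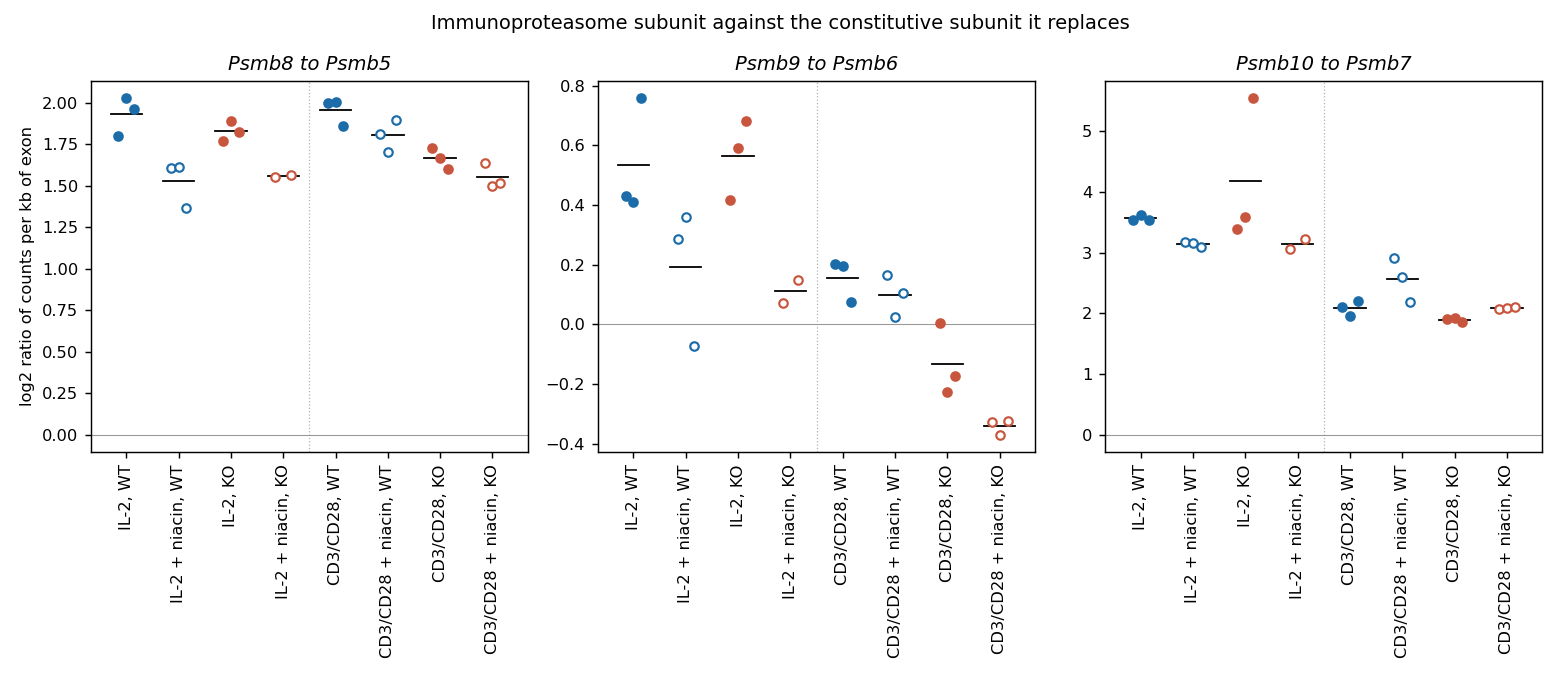
Log2 ratio of each immunoproteasome subunit to the constitutive subunit it replaces (vertical axes, counts per kb of exon), by group along the horizontal axis; points are libraries, filled without and open with niacin, blue for the wild-type and red for the knockout label, and lines are group means. The ratio of Psmb10 to Psmb7 is lower in all 12 stimulated than in all 11 unstimulated libraries, and the outlying library 3 (unstimulated, knockout label) lies highest at 5.55.

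The niacin comparisons ask what 5 mM niacin did to these genes in each background. In unstimulated cells all 10 members had lower means with niacin in both labels, with log2 differences of -0.60 to -0.27 with the wild-type and -0.78 to -0.07 with the knockout label. None passed the test in either label. In stimulated cells the means lay on both sides of zero.

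With the wild-type label unstimulated, Psmb9 was at 563, 471 and 524 CPM without and 410.3, 374 and 280.5 CPM with niacin (-0.55 ± 0.14, edgeR adjusted p = 0.461). Tap1 was at 1016, 861 and 954 against 682, 667 and 551 CPM (-0.58 ± 0.15, edgeR adjusted p = 0.567), and Tapbp at 1517, 1436 and 1260.4 against 1117, 874 and 788 CPM (-0.60 ± 0.18, edgeR adjusted p = 0.87). For 7 members every niacin library lay below every library without it, the exceptions being B2m, Psmb8 and Nlrc5, and 5.22% of all genes had that arrangement. By edgeR 0 members passed (0% of all genes did), 7 had an unadjusted p under 0.05 (2.71% of all genes) and 0 passed with DESeq2. The median of the members was -0.48 beside 0.00 over all genes.

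With the knockout label unstimulated, Tap1 was at 827, 863 and 1329.9 CPM without and 621 and 634 CPM with niacin (-0.68 ± 0.17, edgeR adjusted p = 0.608). Tap2 was at 548, 576 and 972 against 435 and 436 CPM (-0.68 ± 0.18, edgeR adjusted p = 0.608). H2-K1 was at 5226, 5207 and 9069 against 4162 and 4553 CPM (-0.58 ± 0.18, edgeR adjusted p = 0.608). For 8 members both niacin libraries lay below all 3 others, the exceptions being B2m and Nlrc5, and 7.16% of all genes had that arrangement. By edgeR 0 members passed (0% of all genes), 8 had an unadjusted p under 0.05 (7.96% of all genes) and 0 passed with DESeq2. With no filter on low counts 3 passed: Tapbp (-0.75, edgeR adjusted p = 0.00676), Tap1 (-0.66, 0.0368) and Psmb10 (-0.68, 0.046). Over all genes 418 passed in that setting, beside 0 with the filter. Leaving out the outlying library 3, all 10 differences were still negative, from -0.48 to -0.21, with a median of -0.37 in place of -0.56.

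In stimulated cells no member passed by edgeR or DESeq2. With the wild-type label B2m had the lowest unadjusted p, at 3401, 3359.6 and 3741 CPM without and 2133, 2342 and 3179 CPM with niacin (-0.46 ± 0.18, edgeR adjusted p = 0.433). Its niacin libraries 1 and 2 were those with the low mitochondrial shares, and the part of that in the difference was not tested. It was the 1 member with an unadjusted p under 0.05 (9.96% of all genes, 0% past the adjusted threshold). In knockout-labelled cells 0 members had one, beside 5.22% of all genes, and 0.00592% of all genes passed. Psmb10 was at 270.1, 279 and 259 CPM without and 301, 320.1 and 308 CPM with niacin, groups that did not overlap (0.20 ± 0.19, edgeR adjusted p = 1). Tap1 (782, 829.9 and 761 against 729, 712 and 664 CPM) and Psmb9 (633, 565 and 564 against 554, 558 and 507 CPM) were lower in every niacin library of these cells. The share of all genes without overlap was not computed for this comparison.

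**Figure D5:**
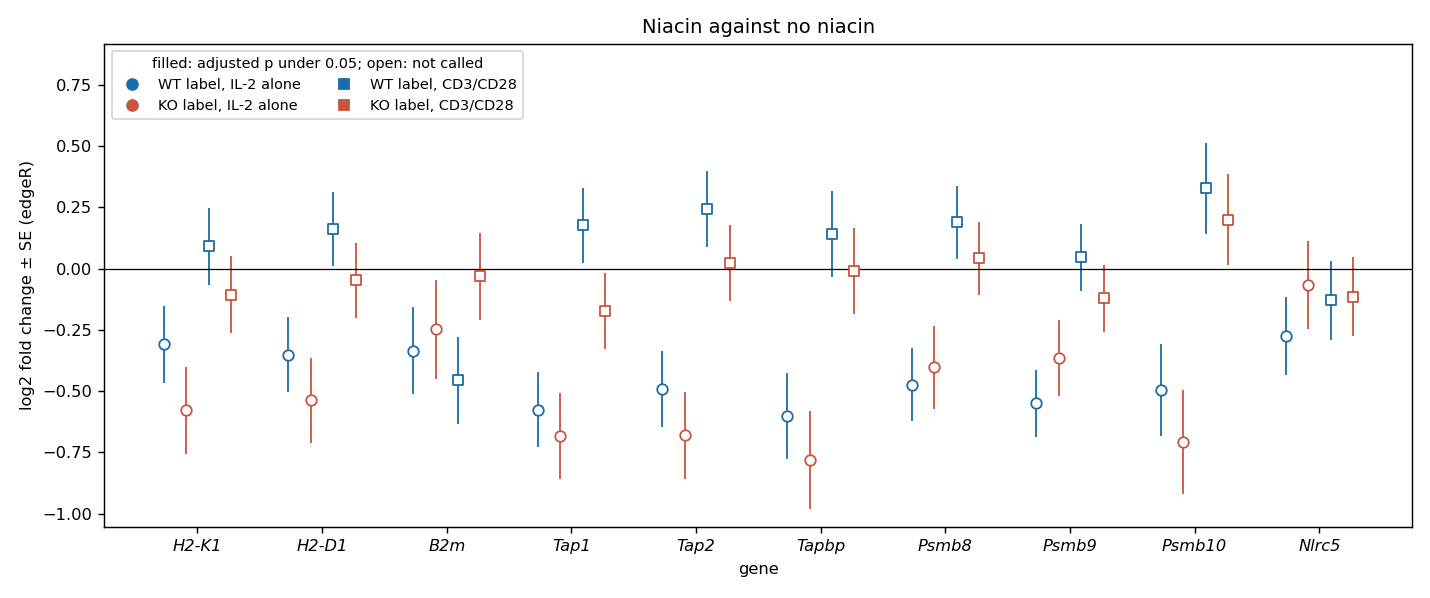
Log2 fold change with against without niacin (vertical axis, edgeR, bars are SE) for each gene (horizontal axis), with circles for unstimulated and squares for stimulated cells, blue for the wild-type and red for the knockout label; all symbols are open because none passed the threshold. All 20 circles lie below zero, while squares lie on both sides of it.

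Averaged over the 4 backgrounds, all 10 members had lower means with niacin, with log2 differences of -0.31 to -0.15, and none passed. Tap1 had the lowest p (-0.31 ± 0.08, edgeR adjusted p = 0.176). By edgeR 0 members were called (0.154% of all genes), 8 had an unadjusted p under 0.05 (6.33% of all genes) and DESeq2 called 0. When the outlying library 3 was left out, Tap1 passed (-0.25, edgeR adjusted p = 0.049). In that setting 98 of all genes passed, beside 26 with that library. Among the 38 other pathway genes 2 fell and 0 rose, beside 0.154% of all genes called. H2-T23, the gene of the nonclassical molecule Qa-1 that presents class I leader peptides, fell by 0.40 ± 0.07 (edgeR adjusted p = 0.016), for example from 1071, 974 and 1091 to 674, 697 and 538 CPM in unstimulated cells with the wild-type label. In stimulated cells of that label it was at 608, 599.6 and 627 CPM without and 667, 657 and 564 CPM with niacin, which overlapped. The count of 2 was 5 without the outlying library 3, where 98 of all genes passed. It was lower without either library of the niacin-treated unstimulated group with the knockout label, which leaves 1 library there. Fewer of all genes passed in those settings as well.

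The difference between the niacin effects in stimulated and unstimulated cells, averaged over the labels, was positive for all 10 members, with a median of 0.53 beside 0.00 over all genes. It was largest for Psmb10 (0.87 ± 0.19, edgeR adjusted p = 0.215), Tapbp (0.75 ± 0.18, edgeR adjusted p = 0.242) and Tap2 (0.72 ± 0.16, edgeR adjusted p = 0.215). By edgeR 0 members passed (0% of all genes) and 8 had an unadjusted p under 0.05 (11.9% of all genes), the exceptions being B2m and Nlrc5. DESeq2 called those 3 genes (adjusted p = 0.0171, 0.0356 and 0.0232) and 0.32% of all genes. Without the outlying library 3, edgeR called Tap2 alone among the members (0.56, adjusted p = 0.0371). The difference in the niacin effect between the labels passed for 0 members by edgeR and by DESeq2, with 0 members at an unadjusted p under 0.05 (0% of all genes past the adjusted and 3.64% past the unadjusted threshold).

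The genotype comparisons ask whether the label changed these genes in a given condition, and they share libraries with the comparisons above. No member passed in any condition by edgeR. Stimulated with niacin, H2-K1 was at 4435, 3992 and 3650.1 CPM with the wild-type and 2877, 2818 and 2561 CPM with the knockout label (-0.55 ± 0.16, edgeR adjusted p = 0.0723). H2-D1 was at 6702, 6236 and 5355 against 4588, 4467 and 4293 CPM (-0.45 ± 0.15, edgeR adjusted p = 0.115), and Tap1 at 1059, 979 and 766 against 729, 712 and 664 CPM (-0.41 ± 0.15, edgeR adjusted p = 0.148). The groups did not overlap for these 3 genes, Tap2 and Psmb9, where 14% of all genes had every knockout-labelled library below every other. For H2-K1 DESeq2 passed (-0.58, adjusted p = 0.0251; 6.65% of all genes passed with it). By edgeR 1.44% of all genes passed, and 4 members had an unadjusted p under 0.05 (19.4% of all genes). Without libraries 1 and 2 of the wild-type-labelled group the difference was -0.43 for H2-K1, -0.29 for H2-D1 and -0.15 for Tap1 (edgeR adjusted p = 0.601, 0.734 and 0.89).

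Stimulated without niacin, H2-K1 was at 3960.0, 3674 and 3708 against 3197, 2947 and 2740.2 CPM (-0.35 ± 0.16, edgeR adjusted p = 0.544) and H2-D1 at 5761, 5295 and 5297 against 4849, 4518 and 4432 CPM (-0.25 ± 0.15, edgeR adjusted p = 0.72). For H2-K1, H2-D1, B2m and Nlrc5 every knockout-labelled library was the lower, an arrangement that 11.2% of all genes had. By edgeR and DESeq2 0 members passed (0.113% of all genes by edgeR), and 1 had an unadjusted p under 0.05 (8.45% of all genes). Unstimulated, the groups overlapped for all 10 members, and by edgeR and DESeq2 0 passed: by edgeR 0.0415% of all genes passed and 10.4% had an unadjusted p under 0.05 without niacin, and 0.0355% and 0.983% with niacin, with 0 members at an unadjusted p under 0.05. Averaged over the 4 conditions 0 members passed by edgeR or DESeq2, beside 0.326% of all genes by edgeR. Only Psmb9 had an unadjusted p under 0.05 (-0.18 ± 0.07, edgeR adjusted p = 0.354; 9.87% of all genes). On leaving out the outlying library 3, the average passed for H2-K1 (-0.23, edgeR adjusted p = 0.0259) and H2-D1 (-0.20, 0.0311).

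The change with stimulation was also compared between the labels, averaged over niacin. For H2-K1 it was lower with the knockout label by an average of -0.61 ± 0.16 (edgeR adjusted p = 0.0942; DESeq2 adjusted p = 0.0227) and for H2-D1 by -0.47 ± 0.16 (edgeR adjusted p = 0.141). By edgeR 0 members passed (0.077% of all genes), 2 had an unadjusted p under 0.05 (18.9% of all genes), and DESeq2 called 1, beside 4.28% of all genes. Without the outlying library 3 the value for H2-K1 was -0.45 and passed (edgeR adjusted p = 0.0342), and it also passed without library 1 or 2 of that group (-0.67 each, edgeR adjusted p = 0.0345 and 0.0473). Leaving out libraries 1 and 2 of the niacin-treated stimulated group with the wild-type label gave -0.57 (edgeR adjusted p = 0.248).

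Of the other pathway genes, 3 passed by label in stimulated cells with niacin, beside 1.44% of all genes, and 0 in the other conditions. That count was 0 without library 1 of the wild-type-labelled or library 2 or 3 of the knockout-labelled cells, 1 without library 2 and 6 without library 3 of the wild-type-labelled cells. Over all genes these settings called, in the same order, 42, 49, 39, 53 and 1024, beside 243 with all libraries. Pdia3, an oxidoreductase of the loading complex, was higher with the knockout label by 0.80 ± 0.17, and Psme3, a proteasome activator, by 0.73 ± 0.16 (edgeR adjusted p = 0.025 and 0.027). Ifngr2, a chain of the interferon gamma receptor, was at 66.7, 59.4 and 50.0 CPM with the wild-type and 31.9, 31.2 and 30.5 CPM with the knockout label (-0.91 ± 0.17, edgeR adjusted p = 0.01). It also passed on average over the 4 conditions (-0.51 ± 0.09, edgeR adjusted p = 0.006). That call was lost without library 3 of the niacin-treated unstimulated group with the knockout label. This setting leaves 1 library in that group, and fewer of all genes passed in it. Leaving out libraries 1 and 2 of the wild-type-labelled stimulated group with niacin leaves 1 library there. Fewer pathway genes then passed in stimulated cells with niacin and on average, as did fewer of all genes.

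Over the 8 group means of log2 CPM, members paired up in different ways, given here as a description of 8 points that share their normalisation. H2-K1 followed H2-D1 (Pearson r = 0.94), Tap2 followed Tapbp, H2-D1 and Psmb10 (0.92, 0.94 and 0.92), and Psmb8 followed Psmb9 (0.95). Nlrc5 ran with H2-K1 (0.85) and Tapbp (0.83) and against Psmb8 (-0.88). For B2m no member reached 0.6, the nearest being Tapbp (0.58). Tap1 and Psmb9, which share the Y box stretch shown above, had r = 0.60.

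Outside the pathway, 7600 genes at 10 CPM or more in every group were searched for the same pattern over the 8 means. The nearest to H2-K1 were Fam53a, Mppe1 and Gse1 (r = 0.98, 0.97 and 0.97), and to Tap1 they were Stat3, Agtrap and Triobp (0.96, 0.95 and 0.93). Nearest to Psmb8 were Pim2, Vars and Foxm1 (0.99 each), which like it had their highest mean in niacin-treated stimulated cells with the wild-type label. Nearest to Nlrc5 were Helz, Uba7 and Shisa5 (r = 1.00, 1.00 and 0.99), all highest in unstimulated wild-type-labelled cells. Fam53a, Mppe1 and Gse1 had their highest mean in the unstimulated knockout-labelled cells, as H2-K1 had, where the outlying library 3 held 9069 CPM of H2-K1 beside 5226 and 5207 CPM, and the wild-type-labelled libraries held 5771, 4928 and 5261 CPM.

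Several members share exons or sequence with other genes, and no source used here gives the strand setting of the counting. Tap1 and Psmb9 overlap by 212 exon bases on opposite strands, Tapbp shares 665 of its exon bases with Gm19412 and Tap2 shares 533 with Gm15821, both on the opposite strand. Of all windows of 50 bases in their transcripts, 8.79% for H2-K1 and 14.32% for H2-D1 also occur in other genes, among them each other, H2-Q1, H2-Q7 and H2-T23. For B2m, Psmb10 and Nlrc5 that share was 0%. Reads of such stretches cannot be assigned with certainty, which leaves the levels of the members other than B2m and Psmb10 partly uncertain. For Nlrc5 this touches only the 78 exon bases that it shares with 9330175E14Rik on the opposite strand.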

How the data were processed

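Whole-number read counts per gene were deposited for the 23 libraries as 1 table with gene positions and exon lengths. Per the submitters' processing notes, Trimmomatic 0.38, STAR 2.7.0e and featureCounts 1.6.3 were used with GRCm38.p5 and mm10. No source used here gives the strand setting or the annotation release. Library 1 of the niacin-treated unstimulated group with the knockout label was not analysed here.

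From the counts, edgeR 4.0.16 (R 4.3.3) kept genes passing filterByExpr (minimum count 10), scaled with TMM, fitted 8 group means over 23 libraries (15 residual degrees of freedom) and ran quasi-likelihood F tests for 17 comparisons. P-values were Benjamini-Hochberg adjusted over 16882 genes, with a threshold of 0.05. Subunit ratios were tested by 80000 exact permutations of a label within backgrounds. DESeq2 1.42.0, RLE factors, no filter, a replicate block and leaving out libraries were alternatives. The model was tested on simulated data.

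The members and lists were chosen with earlier results of these data known. Pathway genes were named by rule: the 3 with the largest called change in each direction, among those at 5 CPM or more in a group. A gene so named is also followed in other comparisons. For 4 members, the 3 genes most correlated over group means were named. A pathway gene so chosen is not reported here.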

Additional observations from a re-analysis of the deposited data

Results flagged for a closer look

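For Psmb10 in knockout-labelled cells, all stimulated libraries lay below the unstimulated ones without niacin and above them with it. Without niacin it was at 348, 330.0 and 566 CPM unstimulated and at 270.1, 279 and 259 CPM stimulated, so all stimulated libraries were lower (-0.62 ± 0.19 on the log2 scale, edgeR adjusted p = 0.00879; -0.33 and 0.0809 without the outlying library 3). In niacin it was at 227 and 280.1 CPM unstimulated and at 301, 320.1 and 308 CPM stimulated, so all were higher (0.29 ± 0.21, edgeR adjusted p = 0.263). The difference between these changes was 0.91, and the same 0.91 separates the niacin difference in stimulated from that in unstimulated cells of this label. It was not tested by itself. Averaged over both labels, it was 0.87 ± 0.19 (edgeR adjusted p = 0.215, DESeq2 adjusted p = 0.0171). The share of all genes whose libraries switch sides in this way was not computed.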

How the results depend on the processing

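Recomputed values of members that had passed the threshold kept direction and call 209 times, lost the call 11 times and reversed 0 times. Those that had not passed stayed so with the same direction 870 times, passed 31 times and reversed 9 times. With no filter on low counts, members called were 3 for niacin in unstimulated knockout-labelled cells, 2 for the label in stimulated cells with niacin, 1 for average niacin, 4 for the niacin effect between stimulated and unstimulated cells and 2 for the stimulation effect between labels. DESeq2 called 1 for the label in stimulated cells with niacin, 3 for the niacin effect and 1 for the stimulation effect. Leaving out each library in turn gave 0 to 1, 0 to 1, 0 to 1 and 0 to 2 for the last 4, and 0 to 2 for the average label. B2m with stimulation in niacin and the knockout label was -0.068 with DESeq2 and with RLE factors, -0.057 with no filter and -0.074 to 0.17 leaving out each library. With the wild-type label it was 0.0069 without libraries 1 and 2 of the stimulated group. Nlrc5 with niacin in unstimulated knockout-labelled cells ran from -0.26 to 0.12. The label difference of the Psmb10 to Psmb7 ratio ran from -0.18 to 0.085, and was 0.082 without those 2 libraries. The cause was not tested. No clear pairing of libraries by replicate number was seen: in 0 of 12 simple comparisons were all correlations over 0.1 (-0.18 to 0.29). The 12 include comparisons between genotype labels, whose libraries come from different mice. The check cannot exclude a pairing in the others. With the replicate block 6, 8, 4 and 4 members were called with stimulation and 0 elsewhere, as without it, and B2m with stimulation in niacin and the knockout label was -0.0016. Over all genes, DESeq2 and no filter called 1122 and 1138 for the label in stimulated cells with niacin, beside 243. For the stimulation effect between labels they called 722 and 1101, beside 13. For the niacin effect between stimulated and unstimulated cells they called 54 and 516, beside 0. No filter called 418 for niacin in unstimulated knockout-labelled cells and 200 for average niacin, beside 0 and 26. Without the outlying library 3, edgeR called 98 genes for average niacin, 4 for the niacin effect, 177 for the stimulation effect and 154 for the average label.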
